A study of Mus musculus with 8 samples.

Results

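Collagen chain genes were examined in mouse lungs with and without mechanical ventilation. Members were all probes whose gene symbol on the array platform had the form of a collagen chain (Col, a type number, a and a chain number). The rule found 59 probes for 37 genes among the 18312 features of the array. The features comprise every gene with a symbol, counted once, and every probe without a symbol. Of these genes 11 encode fibrillar chains, 8 encode basement membrane collagens and 18 belong to other families. A gene counted as detected where at least 1 of its probes had a detection p-value, the scanner's measure of signal above background, under 0.05 on at least 3 of the 8 arrays. By this rule 23 of the 37 genes were detected.

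The lungs came from NOD/shi mice, an inbred strain, aged 6 to 12 weeks, and whole lung was used in both groups. Controls (n = 3) were not ventilated, and the other group (n = 5) was mechanically ventilated, in a series on the lung injury that a ventilator causes. The labels name no other treatment or allele, and neither the ventilator settings and duration nor the handling of controls was given in the sources used here. Lungs are numbered within each group and nothing further is said of separate animals, so p-values measure the spread between these samples, which may be technical.

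Collagens are trimers in which the chains wind into a triple helix built on repeats with glycine at every turn. Fibrillar types give the lung its tensile strength, type IV forms the sheet-like network under epithelium and endothelium, and other types decorate fibrils, form microfilaments or span the cell membrane. In lung the chains are made mainly by fibroblasts, and those of type IV also by endothelial and epithelial cells. New chains are hydroxylated and folded in the cell, trimmed outside it, and then crosslinked by lysyl oxidases.

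Each RNA was read on a single-colour bead array, and brightness varied from array to array. Before normalization the mean probe intensity was 54.3 to 332 on the controls and 87.4 to 321 on the ventilated arrays. Probes detected numbered 8080 to 14313 on controls and 9765 to 13924 on ventilated arrays, and control 2 was the dimmest array of all. Control 1 stood apart in skeletal muscle RNA: the summed normalized intensity of 5 measured of 12 listed skeletal muscle genes ran from 105 to 5478 over the controls and from 197 to 330 over the ventilated lungs. Sftpc, Sftpb, Sftpa1, Scgb1a1 and Ager, which mark surfactant-producing, club and flat alveolar cells of the lung, were detected on all 8 arrays. In such whole-tissue RNA, fewer cells of a type and less RNA per cell cannot be told apart.

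None of the 23 detected collagen genes passed the test between ventilated and control lungs. The test was limma's moderated test across all 10200 detected features, and p-values adjusted by Benjamini-Hochberg were held to 0.05, which called 2% of all features. Levels are normalized log2 intensities, and a difference of 1 between them is a 2-fold difference. The smallest adjusted p among collagens was 0.0814, for Col4a1. At an unadjusted p under 0.05 there were 2 collagen genes, Col4a1 and Col5a1, where 16.2% of all features stood. The same 2 genes were those whose ventilated values all lay on a single side of the controls, a property of 13.2% of all features. No collagen differed 2-fold between the group means, against 5.56% of all features.

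Log2 differences, ventilated minus control, were positive for 15 of the 23 genes (65.2%, beside 51.2% of all features) and negative for 8. They ran from −0.53 for Col17a1 to 0.84 for Col3a1. Their median was 0.18, beside 0.01 for all features. The median was 0.09 for the 7 detected fibrillar genes, 0.20 for the 8 basement membrane genes and 0.12 for the 8 detected others. Col25a1 was detected on no control array. With its controls set at the lowest detected signal of each array, the collagen median was 0.09 and that of the others 0.07. The collagen median depended on single lungs: it was 0.0016 without control 3, 0.08 without ventilated 1, 0.11 without ventilated 2 and 0.13 to 0.24 without each of the rest. It also depended on the processing, at 0.02 with no detection filter (37 genes), 0.09 with every detected probe, 0.10 with either brightness or array number as a block, 0.11 with the deposited values and 0.12 with an offset of 50. In these settings the median of all features lay between −0.02 and 0.04. The collagen median was 0.13 with median scaling, 0.17 with array weights, 0.18 in the 4 brighter arrays alone and 0.19 with detection on all 8 arrays. That of all features was then −0.11, −0.01, −0.01 and −0.05. The median size of the difference, sign aside, was 0.22 for collagens and 0.30 for all features, and the median standard error was 0.28 in both.

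**Figure D1:**
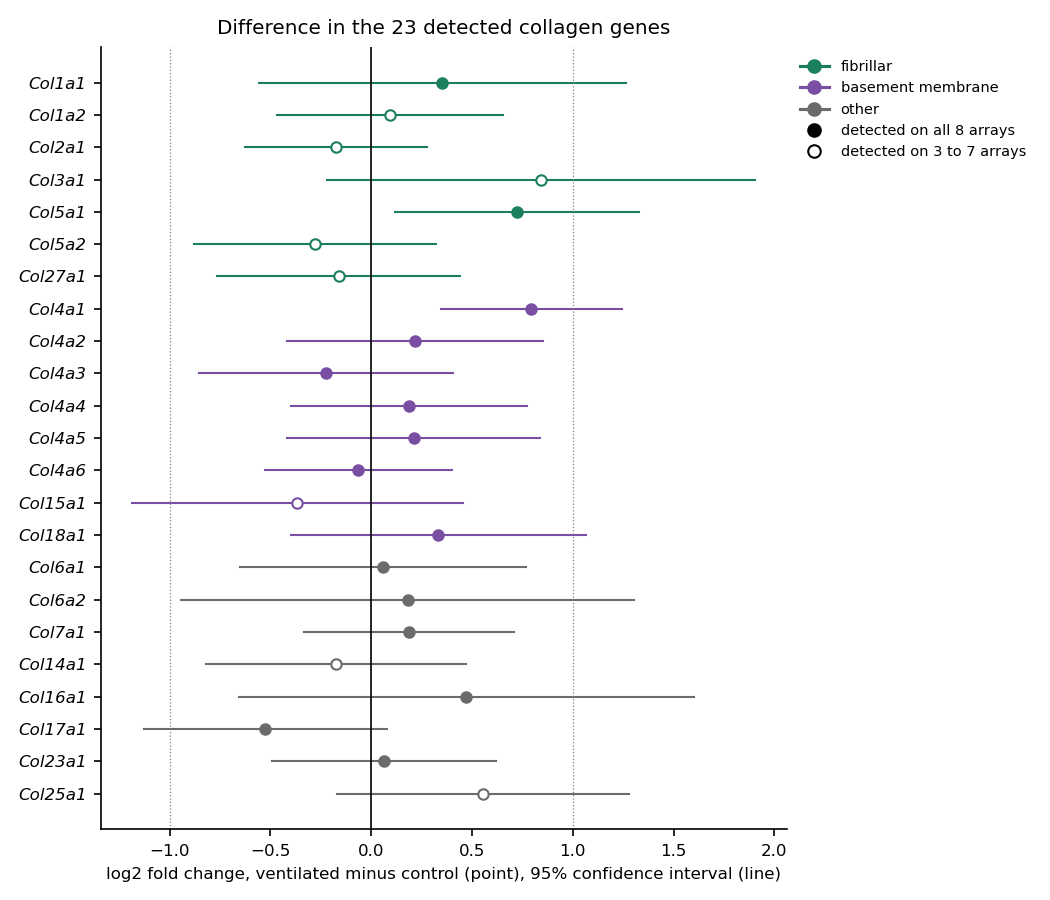
Log2 difference between ventilated and control lungs (horizontal axis) for the 23 detected collagen genes, as points with 95% confidence intervals, coloured by family; open points were detected on 3 to 7 arrays, and Col25a1 is drawn at its fitted value. All points lie between −0.53 and 0.84, and the intervals of Col4a1 and Col5a1 alone do not cross 0, before any adjustment for the number of features.

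Among fibrillar genes, detection was firm for 3 of 11. Col1a1 and Col5a1 were detected on all 8 arrays and Col3a1 on 7. The probes of Col1a2, Col2a1, Col5a2 and Col27a1 were detected on 3 arrays each, which is the least that the rule admits. Col11a1 had 1 of 3 probes detected on 2 arrays, just short of the rule, Col5a3 and Col11a2 were detected on 1 array, and none of 3 probes of Col24a1 was detected on any array.

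**Figure D2:**
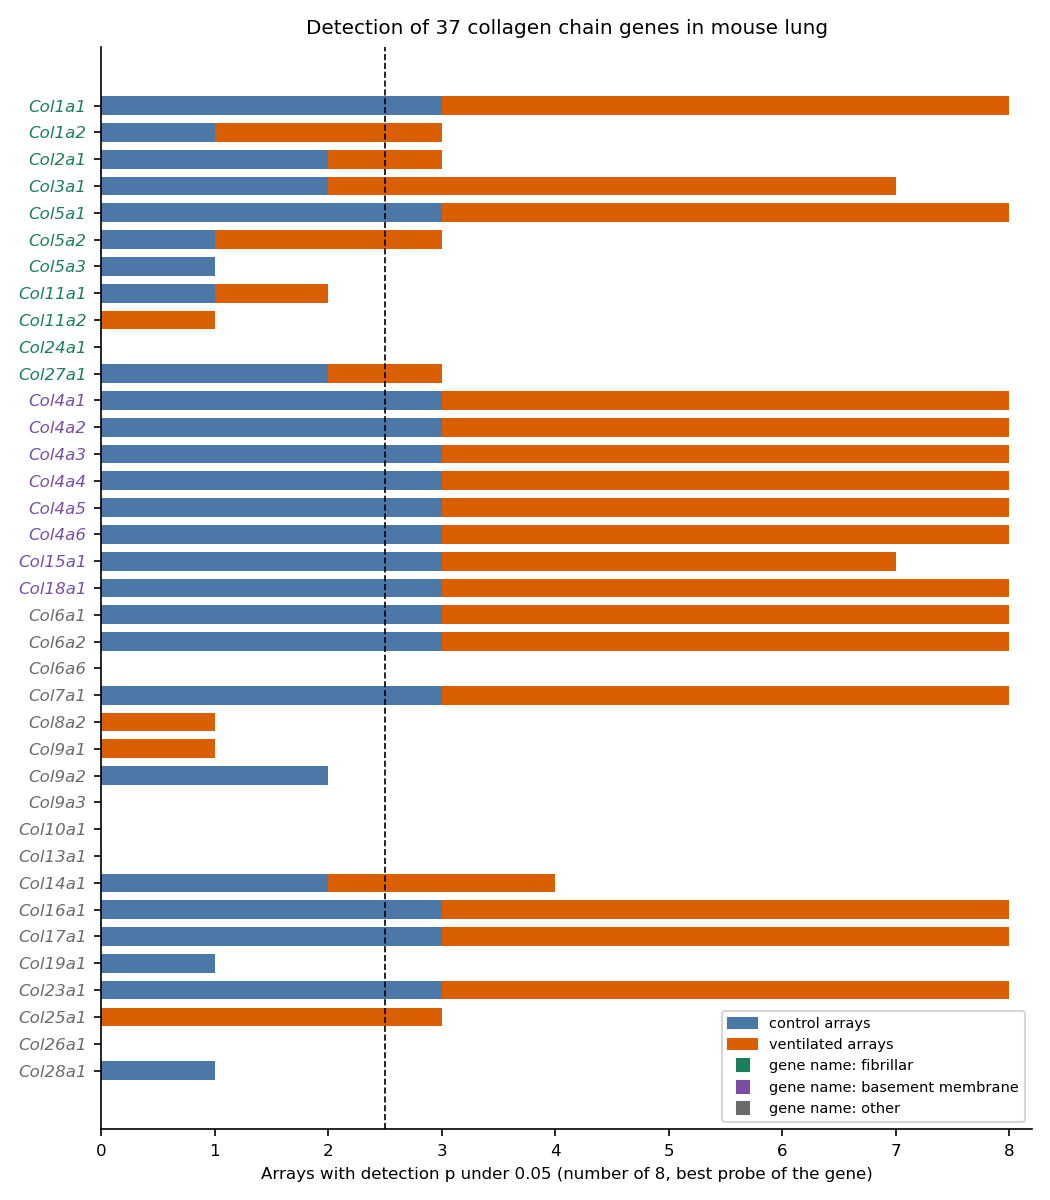
Number of arrays (horizontal axis, of 8) on which the best probe of each of the 37 collagen genes was detected, with control arrays in blue and ventilated arrays in orange. Genes right of the dashed line met the rule of at least 3 arrays; 23 did, among them all 8 basement membrane genes.

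Col1a1, which encodes the main chain of type I collagen, the most abundant collagen of fibrils, did not separate the groups. Its levels were 7.87, 8.74 and 7.26 in controls 1 to 3, and 9.37, 7.85, 7.89, 8.36 and 8.07 in ventilated lungs 1 to 5. The highest value was that of ventilated 1 and the lowest that of control 3, and the ventilated values otherwise lay inside the range of the controls. The difference was 0.35 ± 0.41 (SE; 95% interval −0.56 to 1.26; adjusted p = 0.73). The difference was 0.0024 without control 3, 0.09 without ventilated 1 and 0.74 without control 2.

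Col1a2, the partner chain of type I, was read by a probe close to background. It stood at 4.80, 4.63 and 4.50 in the controls and at 4.30, 5.20, 4.43, 4.99 and 4.77 in the ventilated lungs, and it was detected on 1 control and 2 ventilated arrays. The groups overlapped, with a difference of 0.09 ± 0.25 (SE; interval −0.47 to 0.65; adjusted p = 0.895).

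Col3a1, the chain of type III collagen, which runs with type I in distensible tissue, had a wide control spread (SD 1.22, n = 3) and, with the main processing, the highest difference of the 23 genes. Its levels were 7.07, 4.64 and 5.72 in the controls, of which control 2 was below detection, and 6.04, 6.85, 6.99, 6.25 and 7.13 in the ventilated lungs. Control 1 lay above 4 of the 5 ventilated values. The difference of 0.84 ± 0.48 (SE; interval −0.22 to 1.91; adjusted p = 0.43) became 1.47 without control 1 and 0.26 without control 2. With median scaling it was 0.13, where Col4a1 stood at 1.13, and with the deposited values 0.13, where Col4a1 stood at 1.11. A dimmer probe, detected on 6 arrays, gave 0.30.

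Col5a1 encodes the main chain of type V collagen, which sits in the core of type I fibrils and sets their diameter. It stood at 8.31, 7.34 and 8.43 in the controls and at 8.90, 8.88, 8.80, 8.51 and 8.66 in the ventilated lungs. Every ventilated value lay above every control value, although the gap between control 3 and ventilated 4 was only 0.09. The difference was 0.72 ± 0.27 (SE; interval 0.12 to 1.33; adjusted p = 0.23). Without control 2, the dimmest array and the lowest value, it was 0.38 (adjusted p = 0.415).

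Its partner chain Col5a2 was near background, at 4.83, 5.28 and 4.36 in the controls and 4.17, 4.85, 4.62, 4.28 and 4.80 in the ventilated lungs, detected on 1 and 2 arrays. The groups overlapped, and the difference was −0.28 ± 0.27 (SE; adjusted p = 0.666), or −0.05 without control 2 and −0.51 without control 3. Col2a1, the chain of cartilage collagen, and Col27a1, a minor fibrillar chain, were detected on 2 control arrays and 1 ventilated array each and stood at −0.18 and −0.16. Of 12 listed cartilage genes, 2 were measured in these lungs, and neither passed (median −0.21).

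Basement membrane collagens were the family most evenly detected, with 7 of the 8 genes on all 8 arrays and Col15a1 on 7. Col4a1 and Col4a2 encode the chains of the common type IV network found in every basement membrane. They lie head to head on mouse chromosome 8, so that their promoters overlap. The 300-base windows around both start sites, from RefSeq on GRCm38.p6, are shown because they share 78 bases, in capitals, read from opposite strands.

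Col4a1 (chr8:11312777-11313076, minus strand): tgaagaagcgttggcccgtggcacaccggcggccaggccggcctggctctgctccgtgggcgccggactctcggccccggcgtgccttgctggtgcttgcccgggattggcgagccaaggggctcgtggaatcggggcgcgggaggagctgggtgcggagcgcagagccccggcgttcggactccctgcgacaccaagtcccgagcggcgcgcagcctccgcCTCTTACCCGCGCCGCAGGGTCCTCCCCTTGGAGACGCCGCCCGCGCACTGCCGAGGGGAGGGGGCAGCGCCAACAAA
Col4a2 (chr8:11312555-11312854, plus strand): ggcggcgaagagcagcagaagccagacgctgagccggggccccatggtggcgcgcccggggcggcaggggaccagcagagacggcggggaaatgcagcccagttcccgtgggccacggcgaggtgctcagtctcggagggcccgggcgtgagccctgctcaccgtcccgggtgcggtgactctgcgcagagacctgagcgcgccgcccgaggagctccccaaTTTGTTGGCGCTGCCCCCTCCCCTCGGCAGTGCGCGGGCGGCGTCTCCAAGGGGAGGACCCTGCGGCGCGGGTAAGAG

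A search on both strands for GGGCGG, the core of a GC box, found 1 copy in the Col4a1 window and 3 in that of Col4a2, of which 1 lies in the shared run and is counted for both. The motif occurred in 19 of the 30 collagen promoters in the table (63.3%) and in 35.9% of all 27025 promoters of the same length. CCAAT occurred once in each of the 2 windows and in none of the fully shared bases, and was held by 36.7% of the collagen promoters and 37.9% of all.

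Col4a1 had the clearest separation of any collagen. Its levels were 11.59, 11.81 and 11.51 in the controls and 12.44, 12.49, 12.65, 12.24 and 12.30 in the ventilated lungs. All 5 ventilated values lay above all 3 controls, with a gap of 0.44 between control 2 and ventilated 4, and both groups were tight (SD 0.15, n = 3, and 0.16, n = 5). The difference was 0.79 ± 0.20 (SE; interval 0.34 to 1.24), or 1.73-fold, with an adjusted p of 0.0814. It lay between 0.73 and 0.88 when any array was left out, with adjusted p from 0.0717 to 0.214. The adjusted p passed the threshold in 6 of the other ways of processing, at 0.00712 to 0.0419. It was 0.0716 with brightness as a block, 0.0944 with every detected probe and 0.158 in the 4 brighter arrays alone. With the deposited values it was 0.458, with array number as a block 0.509 and with median scaling 0.9997. Whether this gene passed thus depended on the processing.

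Col4a2 overlapped between the groups, at 11.39, 11.80 and 10.95 in the controls and 12.16, 11.61, 11.44, 11.09 and 11.69 in the ventilated lungs. Control 2 stood above 4 of the 5 ventilated lungs. The difference was 0.22 ± 0.29 (SE; interval −0.42 to 0.85; adjusted p = 0.766). It was 0.0016 without control 3, 0.08 without ventilated 1, 0.43 without control 2 and 0.34 without ventilated 4. Whether the 2 partner chains differed by unequal amounts was tested within each lung, a comparison chosen after the values were seen. The difference for Col4a1 exceeded that for Col4a2 by 0.58 on the log2 scale. An exact two-sided permutation test over 56 arrangements gave p = 0.0893 (adjusted over 2 such comparisons 0.179), where the smallest possible p is 0.0179. The unequal difference of the partner chains did not pass that test.

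**Figure D3:**
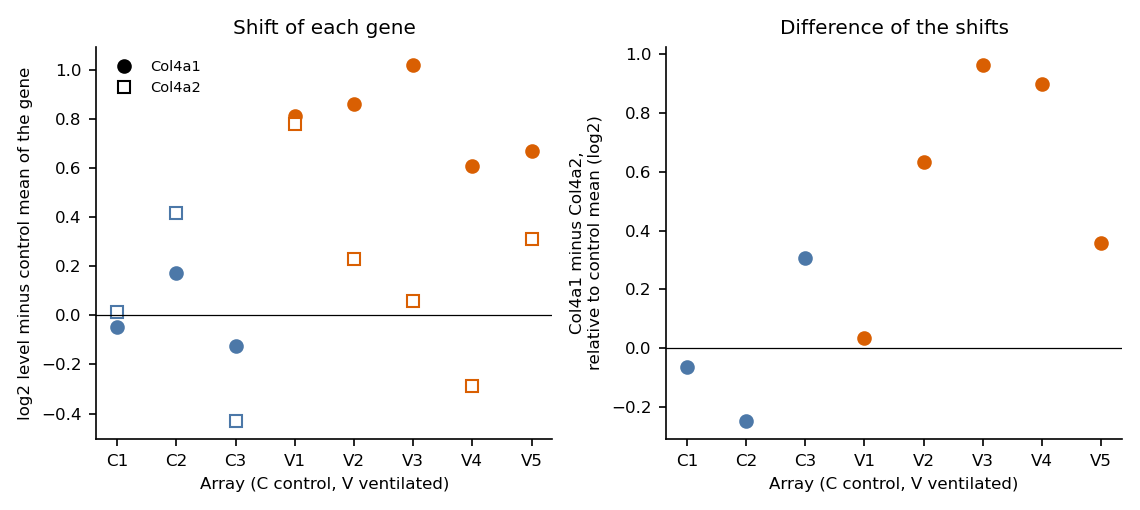
Left, log2 level of Col4a1 (filled circles) and Col4a2 (open squares) on each array relative to the control mean of the same gene; right, the difference of the 2 shifts. Controls are blue and ventilated lungs orange. All 5 ventilated lungs are high for Col4a1, whereas for Col4a2 only ventilated 1 is higher than every control.

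Col4a3, Col4a4 and Col4a5 encode the chains of the specialised type IV network of alveolar and glomerular basement membranes, and none separated the groups. Col4a3 stood at 8.35, 8.94 and 8.53 in the controls and 8.56, 8.90, 8.45, 7.71 and 8.27 in the ventilated lungs, a difference of −0.22 ± 0.29 (SE; adjusted p = 0.756). Col4a4 stood at 8.17, 8.74 and 7.64 in the controls and 8.36, 8.41, 8.17, 8.62 and 8.28 in the ventilated lungs, a difference of 0.19 ± 0.26 (SE; adjusted p = 0.781). In both genes the groups overlapped. The Col4a3 difference was −0.06 without either control 2 or ventilated 4, and that of Col4a4 was −0.08 without control 3 and 0.47 without control 2. A dimmer probe of Col4a4, detected on 7 arrays, gave −0.42. Col4a5 was higher in ventilated 2, at 8.92, than elsewhere, where it ran from 7.78 to 8.43, and its difference was 0.21 ± 0.28 (SE; adjusted p = 0.772).

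Over the 8 lungs, Col4a3 and Col4a5 varied together by rank (Spearman's rho = 0.90, exact permutation p = 0.00456, adjusted over 6 pairs 0.0274). Pearson's r was 0.67 (exact permutation p = 0.0335, adjusted 0.101), and 0.96 without control 2 and ventilated 4, the arrays farthest from the median of Col4a3. For Col4a3 with Col4a4 Pearson's r was 0.001 (exact permutation p = 0.951, adjusted 0.977), rho 0.29 (p = 0.501, adjusted 0.601) and r without control 2 and ventilated 4 was 0.23. For Col4a4 with Col4a5 r was 0.10 (exact permutation p = 0.853, adjusted 0.977), rho 0.21 (p = 0.619, adjusted 0.619) and r without controls 2 and 3 was 0.10. For Col4a1 with Col4a2 r was 0.43 (exact permutation p = 0.284, adjusted 0.567), rho 0.45 (p = 0.267, adjusted 0.535) and r without controls 1 and 3 was −0.09. For Col4a5 with Col4a6 r was −0.09 (exact permutation p = 0.977, adjusted 0.977), rho 0.29 (p = 0.501, adjusted 0.601) and r without ventilated 1 and 2 was 0.08. These pairs, and Col6a1 with Col6a2, are partner chains detected on all arrays and were chosen after values were seen. The adjustment over 6 pairs does not cover that choice, so their p-values only describe these lungs. Sets of 4 brighter and 4 dimmer arrays hold too few samples for a value within each.

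Col4a6, which pairs with Col4a5 in smooth muscle and some epithelial basement membranes, stood between 5.33 and 5.83 on all arrays, with a difference of −0.06 ± 0.21 (SE; adjusted p = 0.912). The multiplexins Col15a1 and Col18a1 carry sugar side chains and lie at the edge of basement membranes, and Col18a1 is the source of the fragment endostatin. Col15a1 stood at 5.83, 6.58 and 5.02 in the controls and 5.97, 5.55, 5.08, 4.88 and 5.74 in the ventilated lungs (−0.37 ± 0.37, SE; adjusted p = 0.683). Its groups overlapped, and the difference was 0.02 without control 2. That lung was the highest after normalization, but before it the lowest, at 47.43 against 48.19 to 150.56 on the other arrays. Control 2, the dimmest array, was also the lowest before normalization for every collagen detected on all arrays. Col18a1 stood at 8.28, 7.87 and 8.84 in the controls and 7.97, 9.11, 9.03, 8.92 and 8.28 in the ventilated lungs (0.33 ± 0.33, SE; adjusted p = 0.676), with ventilated 1 and control 2 the lowest. Without control 2 the Col18a1 difference was 0.10, without ventilated 2 it was 0.22, without control 3 it was 0.59 and without ventilated 1 it was 0.51. A second detected probe of Col18a1, on 5 arrays, gave −0.26.

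Among the other collagens 8 of 18 genes were detected, 6 of them on all 8 arrays. Col6a1 and Col6a2 encode chains of type VI collagen, the beaded microfilament around cells. Col6a1, by its brightest probe, stood at 11.10, 10.88 and 10.26 in the controls and 11.57, 10.63, 10.32, 10.50 and 11.0045 in the ventilated lungs, a difference of 0.06 ± 0.32 (SE; interval −0.65 to 0.77; adjusted p = 0.947). The groups overlapped, and the difference was 0.24 without control 1 and −0.18 without control 3. A second probe, also detected on all arrays, stood at 9.77, 10.06 and 10.08 in the controls and 10.49, 10.74, 10.64, 11.11 and 9.90 in the ventilated lungs. In the fit of every detected probe it gave 0.61 ± 0.28 (SE; interval −0.0019 to 1.22; adjusted p = 0.335). The probes of Col6a1 thus disagreed in size. Their disagreement of 0.55, tested after the values were seen, had p = 0.286 in an exact two-sided permutation test. With so few arrays that p does not show that the probes agree. Another probe, detected on 4 arrays, gave 0.19.

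Col6a2 stood at 8.23, 9.19 and 7.33 in the controls and 9.79, 7.79, 7.82, 8.53 and 8.22 in the ventilated lungs. Ventilated 1 and control 2 were highest and control 3 lowest, so both groups were wide and overlapped. The difference was 0.18 ± 0.51 (SE; interval −0.94 to 1.30; adjusted p = 0.898). Without control 3 it was −0.28 and without ventilated 1 −0.16. With its partner Col6a1 Pearson's r was 0.79 (exact permutation p = 0.0258, adjusted over the 6 pairs 0.101) and rho 0.69 (p = 0.0694, adjusted 0.208). Without control 3 and ventilated 1, the arrays farthest from the median of Col6a1, r was 0.35. Leaving out the farthest arrays narrows the range, so this value cannot tell whether the relation rests on those lungs. With each value taken relative to the mean of its group, r over all 8 arrays was 0.79.

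The profile of Col6a2 over the 8 lungs was close to that of Col1a1, with the same 3 highest lungs in the same order and the same lowest lung. Pearson's r was 0.98 and rho 0.93 over 8 arrays. This pair was chosen for its likeness after the values were seen and has no test. The 3 highest lungs, ventilated 1, control 2 and ventilated 4, are those with the dimmest arrays, at mean raw intensities of 107, 54.3 and 87.4. Of the 15 collagens detected on all arrays, Col1a1, Col6a2 and Col4a6 had their 3 highest values on these 3 arrays, and Col16a1 had its 3 lowest there. Of all 5485 features detected on all arrays 7.68% had the former pattern and 5.8% the latter. The part of array brightness in these profiles was not tested. With brightness as a block the difference was 0.14 for Col1a1 and −0.08 for Col6a2.

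**Figure D4:**
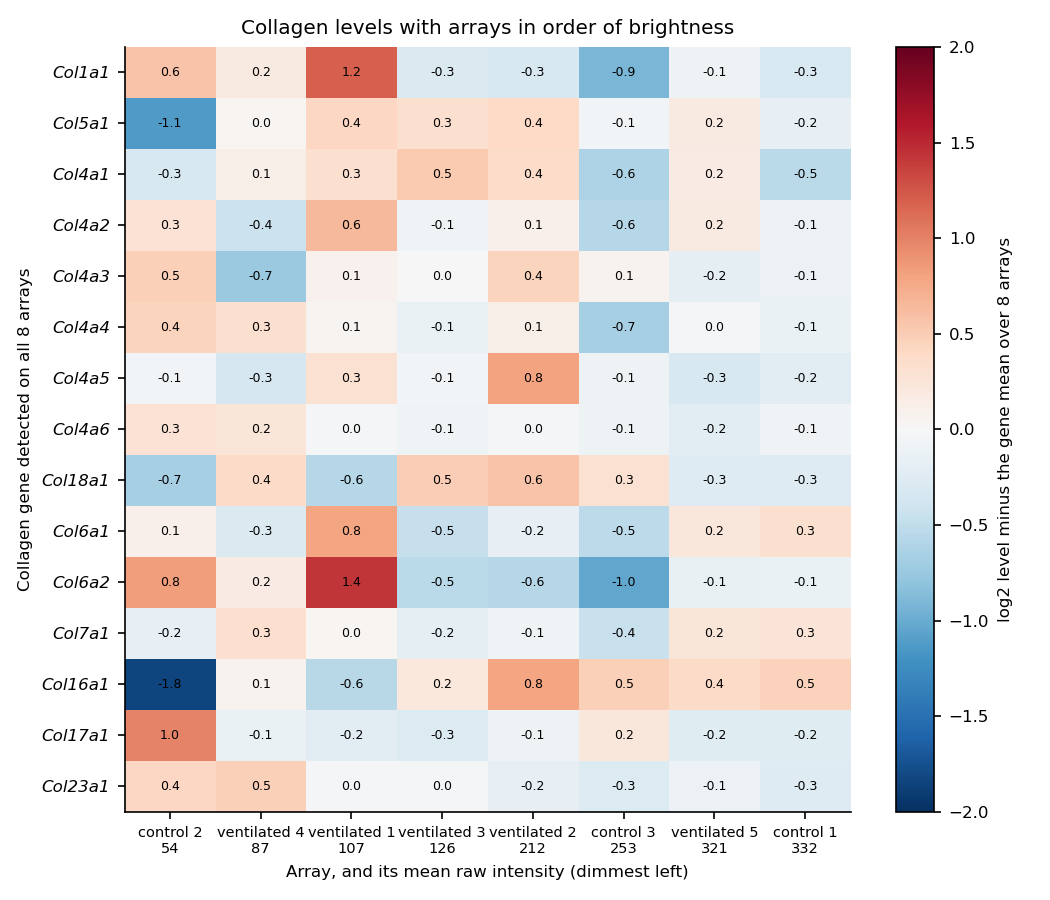
Deviation of each of the 15 collagen genes detected on all arrays from its own mean (colour and printed value, log2 units), with arrays ordered from the dimmest on the left to the brightest by mean raw intensity, printed under each array. Col1a1 and Col6a2 share high values on the 3 arrays at the left and low values on control 3, while Col5a1 and Col16a1 are lowest on control 2.

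Col17a1, a transmembrane collagen of the hemidesmosomes that anchor basal epithelial cells, had the lowest difference with the main processing. It stood at 5.43, 6.66 and 5.89 in the controls and at 5.43, 5.56, 5.40, 5.53 and 5.41 in the ventilated lungs. The ventilated values were tight (SD 0.07, n = 5), but control 1 lay among them. The difference was −0.53 ± 0.27 (SE; interval −1.13 to 0.08; adjusted p = 0.386). It was −0.19 without control 2, the highest lung after normalization, and −0.81 without control 1. Before normalization control 2 was the lowest array for this probe, at 47.94 against 51.15 to 117.36 on the others. The same held for every collagen detected on all arrays. Dimmer probes of Col17a1, detected on 5 and 4 arrays, gave −0.44 and −0.09.

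Col25a1, a transmembrane collagen made chiefly by neurons, was detected on no control array and on 3 of the 5 ventilated arrays. Its levels were 4.33, 4.69 and 4.38 in the controls and 5.34, 4.43, 5.25, 5.71 and 4.38 in the ventilated lungs. After normalization ventilated 1, 3 and 4 were high, and the other ventilated lungs lay among the controls. Those 3 are the ventilated arrays among the 4 dimmer. Before normalization the probe stood at 54.79, 41.22 and 49.25 in the controls. It stood there at 54.93, 54.24, 55.59, 52.29 and 55.77 in the ventilated lungs. In the 4 brighter arrays alone the difference was 0.05. The part of array brightness was not tested. Set against the lowest detected signal on the control arrays, the ventilated mean was 1.05-fold higher. That mean includes ventilated 2 and 5, where the probe was not detected, so the fold is not a strict bound. The fitted difference was 0.55 ± 0.33 (SE; interval −0.17 to 1.28; adjusted p = 0.451). The other 4 probes of Col25a1 were detected on at most 1 array.

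The remaining detected genes lay close to 0 or varied widely. Col16a1, a fibril-associated collagen, ran from 6.65 to 8.96 in the controls, with control 2 the lowest, and from 7.92 to 9.26 in the ventilated lungs, a difference of 0.47 ± 0.51 (SE; adjusted p = 0.708). Col7a1, the chain of the anchoring fibrils under stratified epithelium, and Col23a1, a transmembrane collagen, differed by 0.19 ± 0.24 and 0.06 ± 0.25 (SE). Col14a1, a fibril-associated collagen of fibroblasts, was detected on 2 arrays of each group and differed by −0.17 ± 0.29 (SE).

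**Figure D5:**
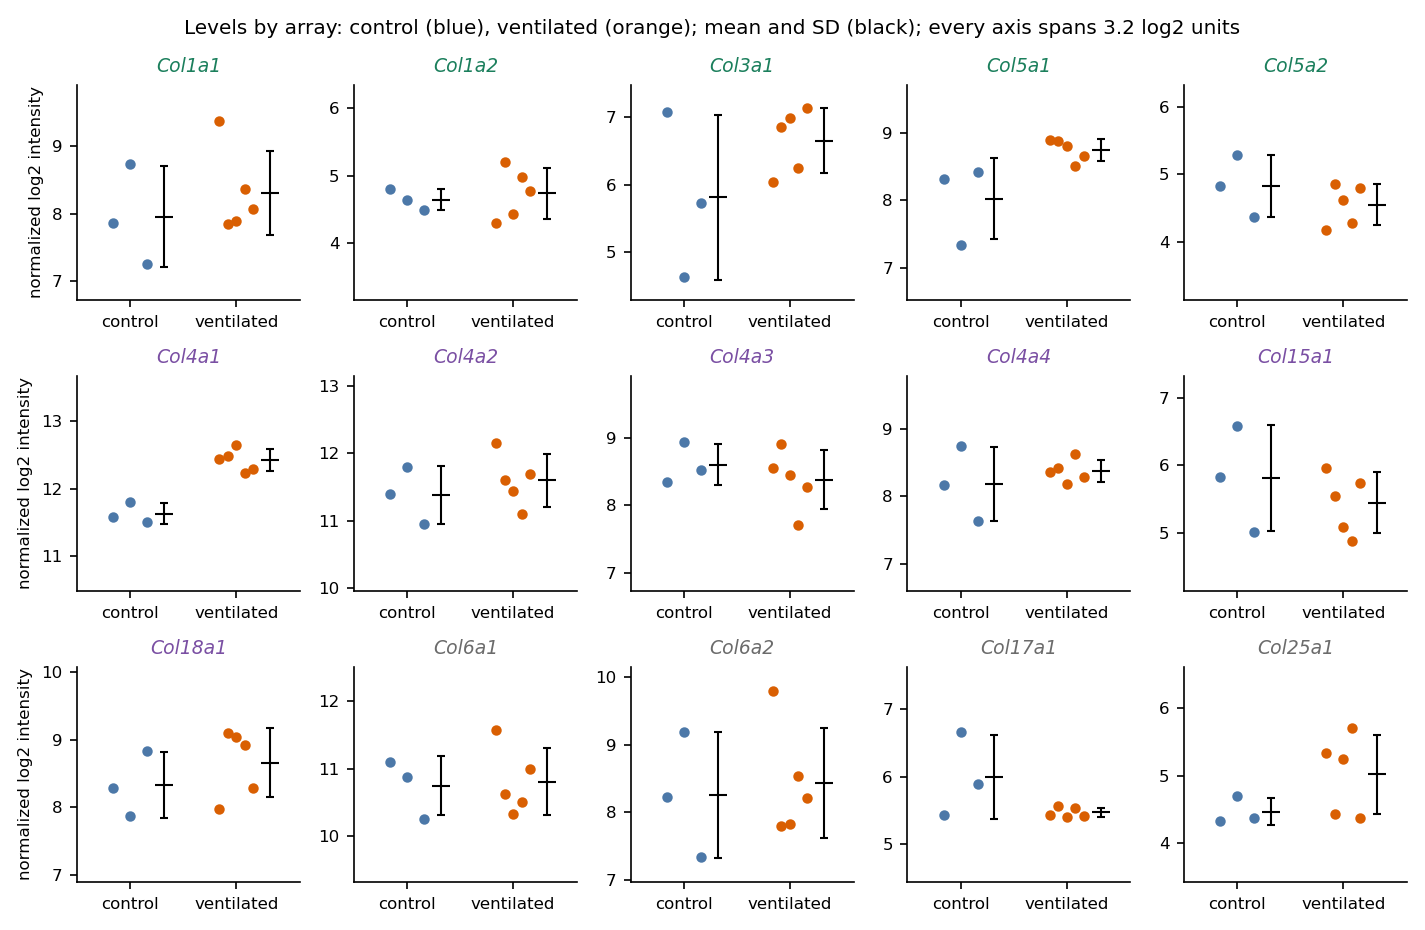
Normalized log2 intensity (vertical axes, each spanning 3.2 units) of 15 collagen genes on each control (blue) and ventilated (orange) array, with the mean and SD in black. The groups are apart for Col4a1 and, by 0.09, for Col5a1, and overlap in the other 13 genes.

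The other 14 genes were not detected by the rule, which does not show that they are absent from lung. They were Col5a3, Col11a1, Col11a2 and Col24a1 among the fibrillar genes, and Col6a6, Col8a2, Col9a1, Col9a2, Col9a3, Col10a1, Col13a1, Col19a1, Col26a1 and Col28a1 among the others. Many of these are chains of cartilage, nerve or embryonic tissue. Col9a2 was detected on 2 controls and on no ventilated array, just short of the rule. Col19a1 and Col28a1 were detected on control 2 alone, at 6.42 and 6.57, against 4.16 to 4.55 on all other arrays. Before normalization they stood at 46.6 and 47.3 on control 2 and between 42.3 and 60.2 on the other arrays, so the raw signal on control 2 was not the highest.

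Genes that process, bind or surround collagen were compared by lists. Across all features 2% passed and 13.2% had groups that did not overlap. Of 18 measured genes for hydroxylation, glycosylation and folding of the chains none passed, and the list's median difference was 0.03, beside 0.01 for all features. Of 7 measured genes for propeptide cleavage and crosslinking 1 passed, the lysyl oxidase Lox, and the list median was −0.03. Lox stood at 8.67, 8.70 and 8.53 in the controls and at 10.45, 10.76, 10.36, 9.33 and 10.05 in the ventilated lungs, all above all controls (1.56 ± 0.31, SE; adjusted p = 0.0325). Bmp1, the protease that removes the C-terminal propeptide of fibrillar collagens, stood at 8.25, 7.20 and 9.03 against 9.10, 10.23, 10.33, 10.36 and 9.20 (1.69 ± 0.45, SE; adjusted p = 0.0904). Its groups did not overlap, though control 3 and ventilated 1 were close. Bmp1 was chosen after its values were seen.

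None passed of 8 measured fibril partners such as decorin (median −0.15), of 10 basement membrane partners such as laminins and nidogens (median 0.11), or of 7 collagen receptors (median 0.18). The fibril partner Tnxb, also chosen after its values were seen, differed by −0.69 ± 0.22 (SE; adjusted p = 0.145). All its ventilated values lay below all controls. Of 12 fibroblast markers 1 was lower (list median 0.06), Tcf21, which encodes a mesenchymal transcription factor, at 8.25, 9.82 and 8.93 in the controls and 7.63, 7.16, 6.91, 6.58 and 6.50 in the ventilated lungs (−2.04 ± 0.37, SE; adjusted p = 0.0257). The other fibroblast markers went both ways and none of them passed. Differences were 1.06 for Dpt, 0.95 for Mfap4, 0.76 for Pdgfra, 0.58 for Pi16, 0.44 for Pdgfrb and 0.33 for Mfap5. They were −0.22 for Scara5, −0.27 for Clec3b, −0.29 for Lsp1, −0.30 for Fbln1 and −0.52 for Inmt. The fibroblast list's summed intensity was 14157 to 17023 in controls and 12136 to 16389 in ventilated lungs. None of 9 measured endothelial markers passed (median −0.19). Their summed intensity was 22657 to 26647 in controls and 16540 to 22032 in ventilated lungs, without overlap, but such a sum weights the brightest probes. Singly, the differences were −0.67 for Tek, −0.49 for Ramp2, −0.46 for Cav1, −0.39 for Egfl7 and −0.19 for Tie1. They were −0.09 for Emcn, −0.03 for Pecam1, 0.004 for Esam and 0.41 for Cdh5. None passed of 8 smooth muscle (median −0.11), 6 mesothelial (0.05), 5 alveolar type 1 (−0.22) and 5 skeletal muscle markers (−1.11). Of 10 measured neutrophil markers 6 were higher (median 2.02), where 2% of all features were called in either direction. Their summed intensity was 1636 to 2107 in controls and 8927 to 20307 in ventilated lungs. The 3 with the smallest p were Retnlg, S100a8 and Il1r2. S100a8, a calcium-binding protein abundant in neutrophils, stood at 8.22, 7.56 and 7.91 in the controls and 13.09, 12.08, 12.16, 11.81 and 11.57 in the ventilated lungs (4.24 ± 0.33, SE; adjusted p = 0.000348). Retnlg, a secreted resistin-like protein, stood at 5.80, 4.75 and 5.60 against 11.59, 10.39, 10.81, 9.70 and 10.32 (5.18 ± 0.40, SE; adjusted p = 0.000348). Il1r2, which encodes a non-signalling interleukin receptor, was detected on no control array and on all 5 ventilated arrays. All ventilated values of these 3 genes, which were picked by their p, lay above all controls. Il1r2, and Camp, another of the 6 called, met the detection rule through the ventilated arrays alone. The calls of Il1r2 and Camp thus rest in part on that rule and are not separate support. The part of these cell types in the collagen values was not tested.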

How the data were processed

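RNA of 3 control and 5 ventilated whole-lung samples was made into biotin-labelled cRNA with a MessageAmp kit and read on Illumina bead arrays, per the labels' protocols; no scanner, software or genome build is named there. The authors deposited linear probe intensities that are neither normalized nor background-subtracted, and a detection p-value for each, per the file headers. A deposited value table holds the same intensities times 1 factor per array (1 value off by over 0.001 of it), with medians of 31.7, 116 and 34.3 on controls 1 to 3 and 70.2, 42.5, 61.5, 82.5 and 30.9 on ventilated arrays 1 to 5. It is linear and uncentred.

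Of 25697 probes 23978 had 1 gene symbol, 0 had several and 1719 had none; a RefSeq table held 23962 and changed 0. In R 4.3.3 with limma 3.58.1, nec estimated background with the help of the detection p-values and subtracted it with an offset of 16, followed by quantile normalization and log2. A total of 13374 probes met the detection rule (p under 0.05, 3 of 8 arrays or more), and the probe with the highest mean stood for each gene, which gave 10200 features. These were fitted with lmFit and eBayes across all features, two-sided, with Benjamini-Hochberg adjustment at 0.05. The fit was run on simulated data of independent normal noise. These had neither the unequal brightness nor the background of the arrays, so the run does not test the fit under those. Exact permutation tests used Python 3.11.15 and scipy 1.17.1; figures used matplotlib 3.10.9.

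Members and lists were chosen with earlier results of these data known. Values on every array are given for collagens past the threshold, the 2 with the smallest p in each family and the detected among Col1a1, Col1a2, Col3a1, Col5a1, Col5a2, Col4a1 to Col4a4, Col6a1, Col6a2, Col15a1 and Col18a1. Of other lists, at most 3 members that passed are described, by the smallest p. Beyond these, Bmp1, Tnxb, Camp and the single fibroblast and endothelial markers are named. Promoters matched 30 of 37 genes. Where no array of a group detected a gene, its fold was taken against the lowest signal of a detected probe on each array, or its own if higher. Alternatives covered background, normalization, deposited values, filter, probe, variance model, weights, brightness, replicate number, threshold and each array left out. Collagen genes without a named probe were not analysed here.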

Additional observations from a re-analysis of the deposited data

How the results depend on the processing

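With 8 arrays of unequal brightness, precision is limited by their number and by signal over background. The count of 204 features called became 0 with median scaling (limma; 116 at an unadjusted p under 0.05), 6 with the deposited value table, 838 with array weights, 315 with brightness as a block, 11 in the 4 brighter arrays alone and 412 at an adjusted p under 0.1. Leaving out each array gave 68 to 164. Without background correction it was 284 and with an offset of 50 it was 288, both within 1.5 times. Median scaling moved the median of all features to −0.11, and the Col4a1 difference there was 1.13. The number of collagen genes called higher was 1 in place of 0, and the gene was Col4a1, without background correction (adjusted p = 0.0303), with an offset of 50 (0.0216), with detection required on all 8 arrays (0.0419), with no detection filter (0.0322), with a trend and robust prior (0.0241), with array weights (0.00712) and at an adjusted p under 0.1. In the other alternatives its adjusted p was 0.0716 to 1, and no collagen was called lower in any setting run. The cause of these shifts was not tested.

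Of 310 values for 15 named collagens over the alternatives, 287 kept direction and side of the threshold, 7 were the Col4a1 calls and 16 changed sign, none of them past the threshold. Those were Col5a2 at 0.0327 (deposited values), 0.0579 (array weights) and 0.23 (brighter arrays), Col4a3 at 0.0324 (array weights), 0.15 (brighter arrays) and 0.0346 (replicate block), Col15a1 at 0.0171 (array weights) and 0.22 (brighter arrays), and Col6a2 at −0.0765 (brightness block). With 1 array left out the range was −0.76 to 0.0212 for Col15a1, −0.0829 to 0.47 for Col4a4, −0.18 to 0.24 for Col6a1, −0.28 to 0.65 for Col6a2 and −0.0215 to 0.20 for Col1a2. The array number as a replicate block left 2 calls and no collagen, but same-numbered arrays share only a number in the labels: their deviations correlated at −0.34, −0.36 and 0.36.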
